A study of Mus musculus with 8 samples.

Results

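The MS4A membrane protein family was examined here through 7 mouse genes, Ms4a4a, Ms4a4b, Ms4a4c, Ms4a6b, Ms4a6c, Ms4a6d and Ms4a7, chosen by symbol from the 24786 gene symbols that were counted. All 7 had counts in every library and all 7 passed the filter on low counts. RNA was sequenced from 8 libraries of liver macrophages of C57BL/6 mice, 2 in each of 4 groups. Macrophages resident in the liver (Kupffer cells) and macrophages that derive from monocytes (MoM) were each taken from dnTGFβRII (TG) and wild-type (WT) mice. The TG transgene encodes a dominant-negative form of the TGF-β receptor II that is known to be driven by a CD4 promoter for action in T cells. The mice develop an immune cholangitis. Expression of the transgene in these macrophages was not examined here. The labels give no age, sex or treatment, and leave it unsaid if the replicates were different animals or pools, so p-values measure only the spread between these libraries.

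MS4A proteins cross the membrane several times and sit in complexes with other receptors, whose signalling or surface level they alter. The best-known members are CD20, the product of Ms4a1 on B cells, and the β chain of the high-affinity IgE receptor, the product of Ms4a2 on mast cells and basophils. In macrophages MS4A4A associates with Dectin-1, the β-glucan receptor encoded by Clec7a, while Ms4a4b is known mainly from T cells, and Ms4a7 is used in the brain to tell border macrophages from microglia.

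All 7 genes are protein-coding and lie together on mouse chromosome 19 in GRCm38, within 283.8 kb. In order they are Ms4a7 (chr19:11321039-11336146, minus strand), Ms4a4a (chr19:11375523-11392790), Ms4a4c (chr19:11404770-11427246), Ms4a4b (chr19:11443553-11467055), Ms4a6c (chr19:11469366-11482192), Ms4a6b (chr19:11516512-11531256), all on the plus strand after the first, and Ms4a6d (chr19:11586604-11604849, minus strand). The closest pair of coding sequences was Ms4a4b and Ms4a4c, which have 678 bases each and align without a gap at 91.7% identity, with 56 differing bases. They are shown because the pair is nearly alike in sequence and differs in expression. Their coding bases 145 to 234, counted from the A of the start codon, hold 15 of the differences, written in capitals:
Ms4a4b: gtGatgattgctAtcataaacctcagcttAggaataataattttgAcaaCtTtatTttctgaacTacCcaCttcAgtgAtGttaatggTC
Ms4a4c: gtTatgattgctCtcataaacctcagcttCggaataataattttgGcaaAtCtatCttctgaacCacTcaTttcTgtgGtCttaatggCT
The longest coding stretch without a difference between the pair ran for 127 bases, from base 321 to base 447. Among the Ms4a6 genes, identity over the alignment was 79.9% for Ms4a6b and Ms4a6d, 74.4% for Ms4a6b and Ms4a6c and 66.5% for Ms4a6c and Ms4a6d. Every other pair of members had between 42.8% and 58.9%.

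Reads could be shared between such copies, so the transcripts of each member were cut into all stretches of 50 bases and searched in the transcripts of all other genes (GENCODE M21, both strands). For Ms4a4c 8.19% of these stretches occurred in another gene, most of them in Ms4a4b, and for Ms4a4b 2.4% did. For Ms4a4a none did, and for Ms4a7 0.31%, for Ms4a6d 2.54% and for Ms4a6b 3.57%. For Ms4a6c 51.37% did, and 49.63% of its stretches matched on the opposite strand, because the noncoding gene BE692007 (chr19:11470166-11484578, minus strand) overlaps it. The strand setting of the authors' counting is not given in the sources used here, so reads of that antisense gene cannot be told apart from those of Ms4a6c. Across the 8 libraries, no other gene repeated the counts of any member.

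The promoters of Ms4a4b and Ms4a4c also resemble each other. RefSeq promoter sequences (GRCm38.p6) matched 6 of the 7 members, all but Ms4a6d, with 7 windows in all, since Ms4a7 has a pair of starts. The windows of Ms4a4c and Ms4a6b, and the inner window of Ms4a7, lie inside the gene extents given above. Start sites here are therefore the RefSeq ones and not always the outer end of the gene. In the 240 bases from 250 to 11 before the start site, Ms4a4b and Ms4a4c were identical at 64.0% of alignment columns, against 44.2% and 43.0% for either of them with Ms4a4a. The hexamer GAGGAA, part of the site bound by the macrophage factor PU.1, was found with its first base 64 bases before the start of Ms4a4b and 61 bases before that of Ms4a4c, and is in capitals here:
Ms4a4b, chr19:11443308-11443547, plus strand: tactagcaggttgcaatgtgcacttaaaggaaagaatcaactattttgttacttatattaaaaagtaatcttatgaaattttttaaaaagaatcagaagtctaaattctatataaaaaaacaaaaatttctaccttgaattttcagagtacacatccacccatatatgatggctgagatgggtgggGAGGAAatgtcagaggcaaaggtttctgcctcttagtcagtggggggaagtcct
Ms4a4c, chr19:11407411-11407650, plus strand: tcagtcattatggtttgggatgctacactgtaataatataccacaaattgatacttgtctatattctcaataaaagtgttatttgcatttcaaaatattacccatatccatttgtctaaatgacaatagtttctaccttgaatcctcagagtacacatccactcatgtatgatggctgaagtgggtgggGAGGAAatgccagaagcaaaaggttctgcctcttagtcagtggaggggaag
Ms4a4a, chr19:11375238-11375477, plus strand, without a match: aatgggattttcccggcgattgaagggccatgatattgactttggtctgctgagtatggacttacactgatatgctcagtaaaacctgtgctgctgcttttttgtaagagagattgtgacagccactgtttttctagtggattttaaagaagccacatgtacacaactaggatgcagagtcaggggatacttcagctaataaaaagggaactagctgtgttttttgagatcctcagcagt
Of the 7 member windows, cut to these 240 bases, 2 held the hexamer on either strand, against 22.3% of the 32851 windows of all genes, cut alike. The outer window of Ms4a7 held it too, but after the start site and so outside these bases. This hexamer was chosen after longer words had been searched in the whole windows of 300 bases. GAGGAAGT (PU.1), TTGCNNAA (C/EBP factors) and the motif of interferon-regulatory factors were in none of the 7 windows and in 3.2%, 10.8% and 3.44% of all, on either strand. TATAAA was in the window of Ms4a4b alone, from 140 bases before the start, and in 13.62% of all windows. A match is a description of letters and not a bound site.

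Libraries held 26190194 to 30308132 counts, and 1 count is worth 0.0330 to 0.0382 CPM (counts scaled to a common library size). Levels are CPM after TMM scaling, which corrects for a few genes taking much of a library, and each group has n = 2. Kupffer markers (8 genes, all found in every library) summed to 14200 to 30500 CPM in the Kupffer libraries and to 322 to 774 CPM in 3 MoM libraries, but to 9340 CPM in MoM WT replicate 1. Endothelial markers reached 8840 CPM in Kupffer TG replicate 2 and 5650 CPM in MoM WT replicate 1, with a range of 579 to 2410 CPM over the remaining 6. T cell markers summed to 323 CPM in Kupffer TG replicate 2, and neutrophil markers to 3800 CPM in MoM TG replicate 2 against at most 550 CPM elsewhere. MoM TG replicate 2 was also highest for classical monocyte markers, at 4200 CPM against 152 to 1190 CPM in the others. In bulk RNA of this kind, fewer cells of a type and less RNA per cell cannot be told apart.

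The comparison of MoM with Kupffer cells asked which macrophage population carries each member. Ms4a4a and Ms4a4c were higher in each MoM library than in any Kupffer library, and Ms4a7 was lower in each. Relative to Kupffer cells, Ms4a4a was 8.08-fold higher in MoM of WT mice and 19.1-fold higher in MoM of TG mice, and both differences passed the test. Ms4a4c was 24.2-fold higher and Ms4a7 6.67-fold lower in MoM of TG mice, and both passed there. In WT, 1 of 7 members was called higher and 0 lower (edgeR quasi-likelihood F-test, Benjamini-Hochberg adjusted p below 0.05), against 1.17% of the 15254 genes tested, or 1.11% higher and 0.059% lower. In TG, 3 of 7 were called, 2 higher and 1 lower, against 2.5% of all genes, or 1.84% higher and 0.656% lower. Members whose MoM and Kupffer libraries did not overlap numbered 6 in WT, 4 higher and 2 lower, against 68.1% of all genes (38.5% higher, 29.7% lower). In TG they numbered 5, 4 higher and 1 lower, against 52.9% of all genes (29.1% higher, 23.8% lower). DESeq2 called 4 of 7 members in WT, against 19.3% of all genes, and 5 of 7 in TG, against 17.4%.

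Dendritic cell markers (8 genes, none at 0 in any library) were higher in MoM as a sum, the direction of Ms4a4a and Ms4a4c. They summed to 59.9 to 257 CPM in the Kupffer libraries and to 1270 to 1830 CPM in the MoM libraries. Of these markers Cd209a, Itgax and Kmo were called higher in MoM in both genotypes, and Flt3 in WT. The list did not move as 1 group. In TG, Xcr1 (log2 fold change -0.95 ± 0.81), Clec9a (-0.34 ± 0.34) and Siglech (-0.26 ± 1.38) had negative values, with overlapping libraries. In WT these markers had 4.62 ± 0.93, 1.45 ± 0.34 and 0.58 ± 1.38, with overlap for Siglech. Zbtb46 was positive in both genotypes without a call. This direction was not particular to dendritic cell markers. Classical monocyte markers summed to 152 to 465 CPM in Kupffer libraries and 519 to 4200 CPM in MoM. Neutrophil markers summed to 2.2 to 33.3 and 59.4 to 3800 CPM. Of the classical monocyte markers only Ccr2 was called, in both genotypes, and Vcan had -0.15 ± 1.51 in WT. Sums of nonclassical monocyte, NK, and mast cell and basophil markers overlapped. The part of any of these cells in the differences of the members was not tested.

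**Figure D1:**
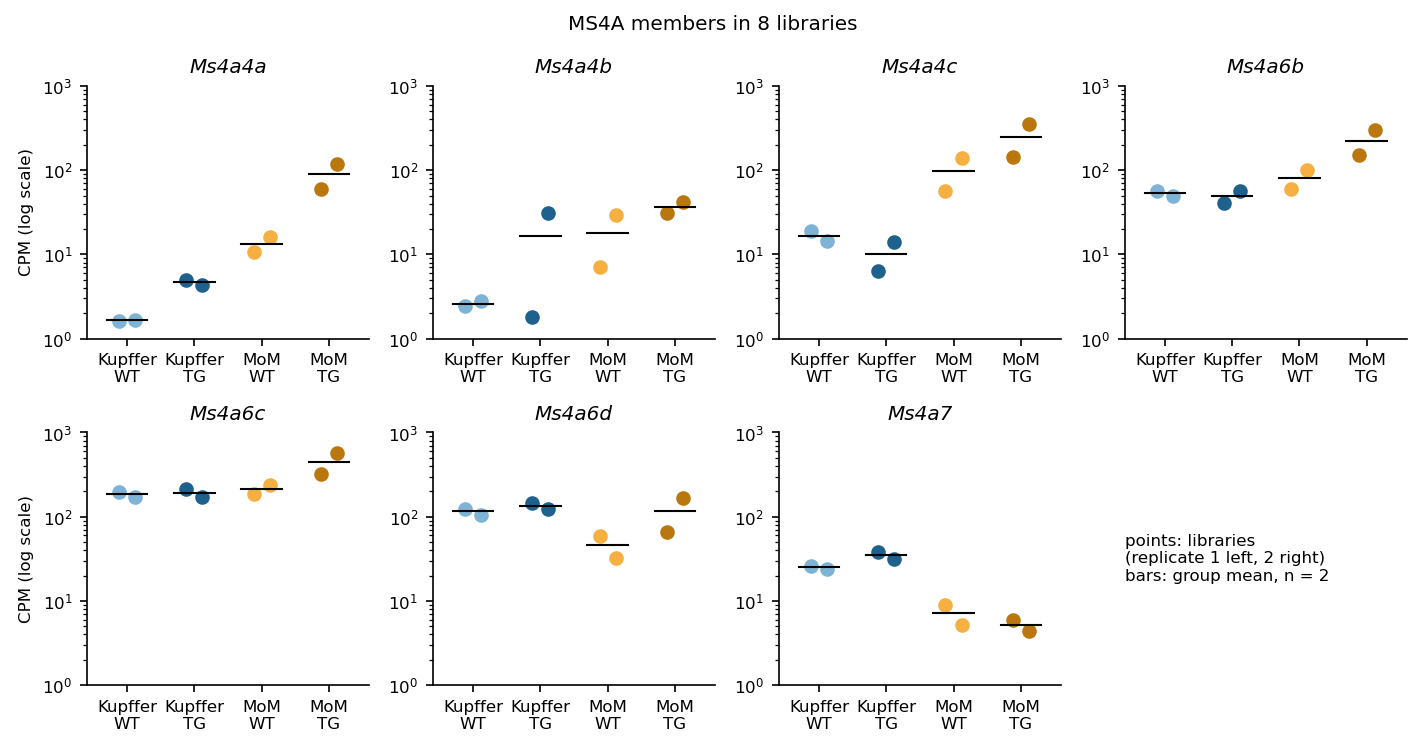
Level of each of the 7 members in the 8 libraries, as CPM on a log axis. Points are libraries, with replicate 1 on the left and replicate 2 on the right of each pair, and bars are group means (n = 2). Ms4a4a and Ms4a4c are higher in all 4 MoM libraries than in any Kupffer library, and Ms4a7 is lower in all 4.

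Ms4a4a, the partner of Dectin-1, had 1.62 and 1.68 CPM in WT Kupffer cells (45 counts in each library) and 4.99 and 4.35 CPM in TG Kupffer cells. It had 10.7 and 16 CPM in WT MoM and 60.0 and 119 CPM in TG MoM. The 4 groups did not overlap at any step of this order, which ran from WT Kupffer cells through TG Kupffer cells and WT MoM to TG MoM. The log2 fold change of MoM over Kupffer cells was 3.01 ± 0.41 (SE) in WT (edgeR adjusted p = 0.0369) and 4.26 ± 0.42 in TG (edgeR adjusted p = 0.0239). The call in WT ended without Kupffer WT replicate 1 (adjusted p = 0.316) or 2 (0.36), without MoM TG replicate 1 (0.087) or 2 (0.0866), and without MoM WT replicate 2 (0.161), with log2 fold changes of 2.70 to 3.27 over all libraries left out in turn.

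Ms4a4c, a gene known from monocytes, had 18.9 and 14.3 CPM in WT Kupffer cells and 6.31 and 14.1 CPM in TG Kupffer cells. It had 56.4 and 140 CPM in WT MoM and 144 and 349 CPM in TG MoM. All MoM libraries were above all Kupffer libraries, and the lowest MoM library was MoM WT replicate 1, the one that carried Kupffer markers. The log2 fold change was 2.57 ± 0.66 in WT (edgeR adjusted p = 0.103) and 4.60 ± 0.73 in TG (edgeR adjusted p = 0.0417). The WT value passed in DESeq2 (adjusted p = 0.00211) and when only the 4 WT libraries were fitted (edgeR adjusted p = 0.0451). Without both libraries rich in endothelial RNA, left out after seeing the data, the log2 fold change was 3.04.

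Ms4a7 had 26.0 and 24.0 CPM in WT Kupffer cells and 38.4 and 31.0 CPM in TG Kupffer cells. It had 9.02 and 5.15 CPM in WT MoM and 5.99 and 4.41 CPM in TG MoM. Kupffer cells were higher in every library, and within the MoM the highest value belonged to MoM WT replicate 1, whose Kupffer markers stood at 9340 CPM against 322 CPM in MoM WT replicate 2. The log2 fold change was -1.82 ± 0.34 in WT (edgeR adjusted p = 0.0662) and -2.74 ± 0.35 in TG (edgeR adjusted p = 0.0305). Without MoM WT replicate 1 the WT value was -2.29 ± 0.36 and passed the test (edgeR adjusted p = 0.0379). In DESeq2 it passed with all libraries (-1.87 ± 0.40, adjusted p = 1.17e-04).

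The 3 calls in TG ended whenever Kupffer TG replicate 1, either WT Kupffer library or either TG MoM library was left out. Adjusted p then lay between 0.0703 and 0.0905 for Ms4a4a, between 0.114 and 0.138 for Ms4a4c and between 0.0944 and 0.165 for Ms4a7. With only the 4 TG libraries in the fit, adjusted p was 0.0885, 0.102 and 0.0888, and 0 of all genes were called. The direction was kept in all of these fits.

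Within a library, the ratio of Ms4a4c to Ms4a7 counts does not depend on scaling. It was 0.165 and 0.454 in TG Kupffer cells, 0.724 and 0.593 in WT Kupffer cells, 6.25 and 27.2 in WT MoM and 24.1 and 79.3 in TG MoM. Ms4a7 therefore exceeded Ms4a4c in each of the 4 Kupffer libraries and Ms4a4c exceeded Ms4a7 in each of the 4 MoM libraries, as counts not divided by length. The exon lengths of the pair are close, at 1.751 and 1.732 kb. The smallest ratio among the MoM was again that of MoM WT replicate 1.

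The Ms4a6 genes, whose products are macrophage and monocyte membrane proteins, were less divided between the populations. Ms4a6c was the most abundant member per length in each of the 4 groups, with means of 99.7 CPM per kb of exon in WT Kupffer cells, 103 in TG Kupffer cells, 114 in WT MoM and 243 in TG MoM. Ms4a6d followed in both Kupffer groups, at 75.1 (WT) and 87.1 (TG) CPM per kb, while Ms4a4c followed in the MoM, at 56.0 (WT) and 141 (TG) CPM per kb, except in MoM WT replicate 1, where Ms4a6d was above Ms4a4c (38.3 against 32.2). Ms4a4b was lowest per kb in 3 of 4 Kupffer libraries (in Kupffer TG replicate 2 Ms4a4a was lower, at 5.2 against 6.61), and Ms4a7 in TG MoM (3 against 7.66 CPM per kb for Ms4a4b). In WT MoM the order of the pair differed between replicates, with Ms4a4b at 1.48 and Ms4a7 at 5.21 CPM per kb in replicate 1, which held Kupffer markers, and 6.11 and 2.97 in replicate 2. Length here joins the exons of all coding transcripts of a gene, 4.75 kb for Ms4a4b and 0.836 kb for Ms4a4a. Without division by length, Ms4a4a was below Ms4a4b in WT Kupffer cells (1.62 and 1.68 against 2.41 and 2.80 CPM).

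Ms4a6b had 57.2 and 49.8 CPM in WT Kupffer cells, 41.2 and 56.6 in TG Kupffer cells, 60.1 and 101 in WT MoM and 151 and 297 in TG MoM. The Kupffer groups overlapped, and TG MoM stood above all other libraries. MoM over Kupffer cells gave a log2 fold change of 0.59 ± 0.40 in WT (edgeR adjusted p = 0.37) and 2.19 ± 0.42 in TG (edgeR adjusted p = 0.0549). The TG value passed without either WT MoM library (0.0402 without replicate 1 and 0.0398 without replicate 2), with no filter on low counts (0.0441) and in DESeq2 (8.59e-05).

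Ms4a6c had 198 and 169 CPM in WT Kupffer cells, 211 and 169 in TG Kupffer cells, 184 and 237 in WT MoM and 321 and 574 in TG MoM. Only the TG MoM libraries lay outside the range of the others. The log2 fold change of MoM over Kupffer cells was 0.20 ± 0.33 in WT (edgeR adjusted p = 0.719) and 1.24 ± 0.33 in TG (edgeR adjusted p = 0.0908, and 0.0139 in DESeq2).

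Ms4a6d had another order. It had 125 and 106 CPM in WT Kupffer cells, 146 and 122 in TG Kupffer cells, 58.9 and 32.6 in WT MoM and 65.4 and 167 in TG MoM. WT MoM lay below all Kupffer libraries, whereas the TG MoM libraries fell on both sides of them. The log2 fold change of MoM over Kupffer cells was -1.34 ± 0.49 in WT (edgeR adjusted p = 0.165, and 0.0417 in DESeq2) and -0.20 ± 0.48 in TG (edgeR adjusted p = 0.813). The TG value turned to 0.32 without MoM TG replicate 1 and was -1.03 without MoM TG replicate 2.

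**Figure D2:**
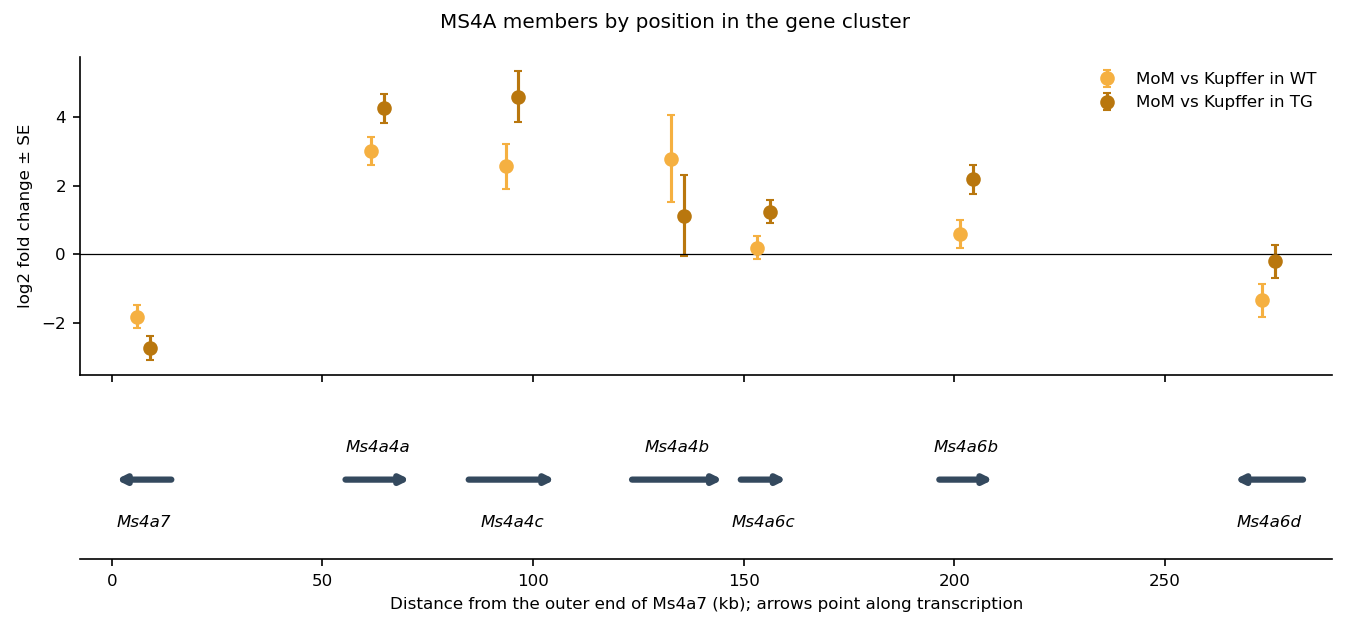
Log2 fold change of MoM over Kupffer cells, with its SE, for each member placed at its position in the cluster, as distance in kb from the outer end of Ms4a7, with WT and TG points set slightly apart. The arrows show gene extent and direction of transcription. Of the members, Ms4a7 and Ms4a6d, on the minus strand at the ends, have negative values in both genotypes. The 5 plus-strand members between them have positive values. Ms4a6d in TG (-0.20 ± 0.48) and Ms4a6c in WT (0.20 ± 0.33) lie within their errors of 0. Family genes not drawn here do not all follow strand. On the minus strand, Ms4a1 (5.53 ± 1.19 in WT, 3.31 ± 1.05 in TG) and Ms4a2 (9.40 ± 3.18, 4.14 ± 2.02) were positive and Ms4a8a (-2.17 ± 1.08, -2.66 ± 1.10) negative. Ms4a2 had 0 counts in both WT Kupffer libraries. Ms4a4d, on the plus strand between Ms4a6b and Ms4a6d, had 1.43 ± 1.99 in WT and -1.16 ± 1.93 in TG, within its errors of 0.

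Ms4a4b, the member known from T cells, differed most between replicates. It had 2.41 and 2.80 CPM in WT Kupffer cells, 1.81 and 31.4 in TG Kupffer cells, 7.04 and 29.0 in WT MoM and 31.1 and 41.6 in TG MoM. Kupffer TG replicate 2 stood with the MoM, and the TG Kupffer libraries were at once the lowest and the second highest of all 8. The log2 fold change of MoM over Kupffer cells was 2.79 ± 1.26 in WT (edgeR adjusted p = 0.22) and 1.13 ± 1.18 in TG (edgeR adjusted p = 0.587). Without Kupffer TG replicate 2 the TG value was 4.21. Without both that library and MoM WT replicate 1 it was again 4.21, with 3.44 in WT. Leaving out both was decided after seeing the data. It removes libraries that differed from their replicates in Ms4a4b and leaves Kupffer TG and MoM WT with 1 library each.

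As a sum, T cell markers (12 genes, none at 0 in any library) peaked among Kupffer libraries in replicate 2 of TG, like Ms4a4b. They summed to 41.1 and 51.0 CPM in WT Kupffer cells, 62.3 and 323 in TG Kupffer cells, 76.5 and 207 in WT MoM and 165 and 243 in TG MoM. Cd3e, a chain of the T cell receptor complex, had 23.7 CPM in Kupffer TG replicate 2 and 0.97 to 3.29 CPM in the other Kupffer libraries. The list did not move as 1 group between MoM TG replicate 1 and MoM WT replicate 1, where Ms4a4b had 31.1 and 7.04 CPM. Cd3d (3.43 and 3.09 CPM), Cd3g (4.74 and 4.72), Cd8a (10.1 and 11.1) and Bcl11b (3.50 and 3.86) were close there. The remaining T cell markers were higher in the TG library, among them Lck (39.5 and 12.1), Cd2 (28.8 and 6.82) and Cd3e (5.80 and 3.12). NK markers, of which 2 of 8 were at 0 in Kupffer WT replicate 1 and none in the other libraries, reached 185 CPM in Kupffer TG replicate 2, 8.51 to 15.1 CPM in the remaining Kupffer libraries, and 34.2 to 481 CPM in MoM. Mast cell and basophil markers (8 genes, 5 at 0 in Kupffer WT replicate 2, 4 in Kupffer WT replicate 1, 2 in Kupffer TG replicate 1 and none elsewhere) followed the same libraries. Their sum was 130 CPM in Kupffer TG replicate 2 and 1.87 to 6.73 CPM in the remaining Kupffer libraries. It came to 44.6 and 273 CPM in WT MoM and 371 and 335 CPM in TG MoM. In Kupffer TG replicate 2 most of the sum was Hdc (96.1 CPM) and Gata2 (27.7 CPM). Each other marker of that list had at most 2.21 CPM there. The part of any of these cells in the Ms4a4b values was not tested. The count ratio of Ms4a4b to its near copy Ms4a4c was 0.119 to 0.287 in 7 libraries and 2.23 in Kupffer TG replicate 2.

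**Figure D3:**
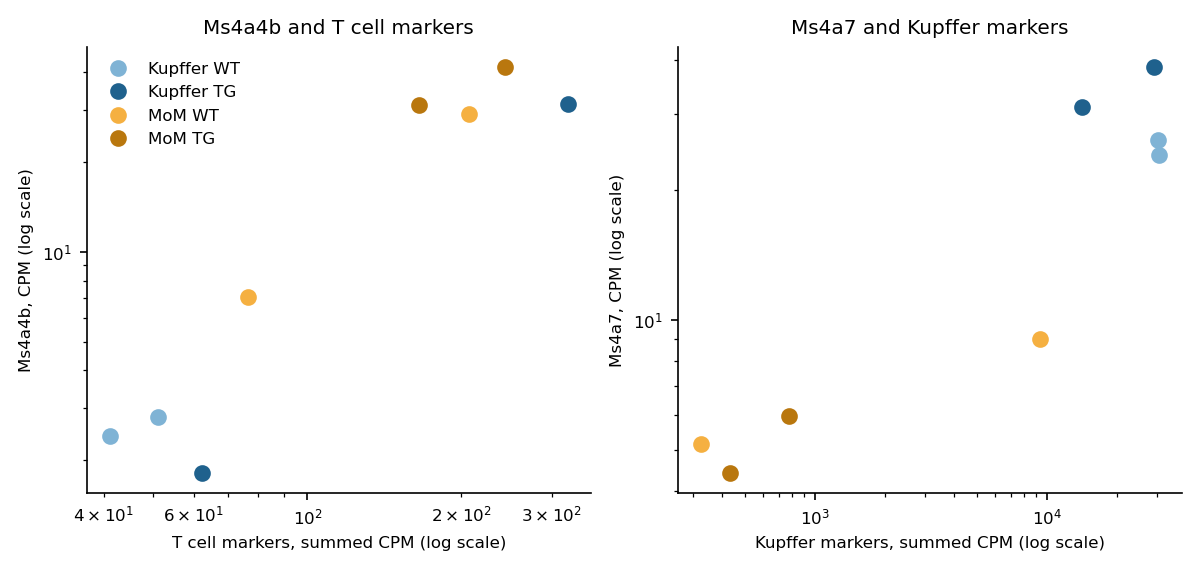
Left, Ms4a4b against the summed T cell markers, and right, Ms4a7 against the summed Kupffer markers, both as CPM on log axes, with 1 point per library and colours for the 4 groups. Kupffer TG replicate 2 lies with the MoM on the left, at 323 and 31.4 CPM, and MoM WT replicate 1 lies between the other MoM and the Kupffer libraries on the right, at 9340 and 9.02 CPM.

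Whether the disease model alters these genes in resident macrophages was asked by setting TG against WT Kupffer cells. No member was called: 0 of 7 in edgeR, against 0% of all genes, with 1 of 7 at an unadjusted p below 0.05 (5.94% of all genes) and 0 in DESeq2 (1.55%). That member was Ms4a4a, 2.83-fold higher in TG (log2 fold change 1.5 ± 0.39, edgeR adjusted p = 0.73), with both TG libraries above both WT libraries. Ms4a7 was also above WT in both TG libraries (0.47 ± 0.33, edgeR adjusted p = 0.782) and Ms4a4c below in both (-0.70 ± 0.63, edgeR adjusted p = 0.827). These 3 of 7 members without overlap, 2 higher and 1 lower, compare with 34.4% of all genes (16.7% higher, 17.7% lower). Ms4a6b (-0.13 ± 0.40), Ms4a6c (0.05 ± 0.33) and Ms4a6d (0.21 ± 0.48) lay within their errors of 0 on the log2 scale. The value of Ms4a4b, 2.67 ± 1.26, rested on Kupffer TG replicate 2 and was -0.47 without it.

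The same question in MoM gave higher TG values for most of the family. All members but Ms4a7 had both TG libraries above both WT libraries, that is 6 of 7, where 19.2% of all genes had this order (39.2% in either direction, 20% lower), and the median log2 fold change of the 7 was 1.33 against -0.04 over all genes. None was called: 0 of 7 in edgeR, against 0% of all genes, with 4 of 7 at an unadjusted p below 0.05 (6.47% of all genes) and 1 in DESeq2 (0.872%). The members were chosen with results of these libraries known, so these counts are a description.

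Ms4a4a had the largest genotype difference of the 7 in MoM, 6.7-fold (log2 fold change 2.74 ± 0.39). Its p-value ranked 2 among 15254 genes in edgeR, with an adjusted p of 0.618, and it was the member called in DESeq2 (2.73 ± 0.45, adjusted p = 8.08e-06). The difference was 2.17 without MoM TG replicate 2 and 3.16 without MoM TG replicate 1. Next were Ms4a6b (1.48 ± 0.41), Ms4a6d (1.35 ± 0.49), Ms4a4c (1.33 ± 0.64), Ms4a6c (1.09 ± 0.33) and Ms4a4b (1.01 ± 1.18), with edgeR adjusted p of 0.755 to 0.896. Ms4a7 had -0.45 ± 0.33 (edgeR adjusted p = 0.839) and 0.02 without MoM WT replicate 1.

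In each of Ms4a4a, Ms4a4b, Ms4a4c, Ms4a6b, Ms4a6c and Ms4a6d, MoM TG replicate 2 was the highest of the 8 libraries. This library also had the most classical monocyte RNA (4200 CPM, with Ly6c2 at 517 CPM against 33.4 CPM in MoM TG replicate 1) and the most neutrophil RNA (3800 CPM). Nonclassical monocyte markers (8 genes, none at 0) were higher as a sum in both TG MoM libraries, at 7100 and 4520 CPM against 2630 and 3250 CPM in WT MoM. Ace had 1250 and 500 CPM against 176 and 294 CPM. Nr4a1 made up much of the sums, at 3360 and 2410 CPM in TG against 1300 and 1910 CPM in WT. Cd300e (217 and 70.1 against 77.7 and 36.0 CPM) and Eno3 (121 and 40.3 against 31.1 and 44.7 CPM) overlapped between genotypes. Without MoM TG replicate 2, which left 1 TG MoM library, the genotype difference in MoM was smaller. It was 0.91 for Ms4a6b, 0.61 for Ms4a6c, 0.56 for Ms4a4c and 0.52 for Ms4a6d, each still positive. The part of these cells in the differences was not tested.

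**Figure D4:**
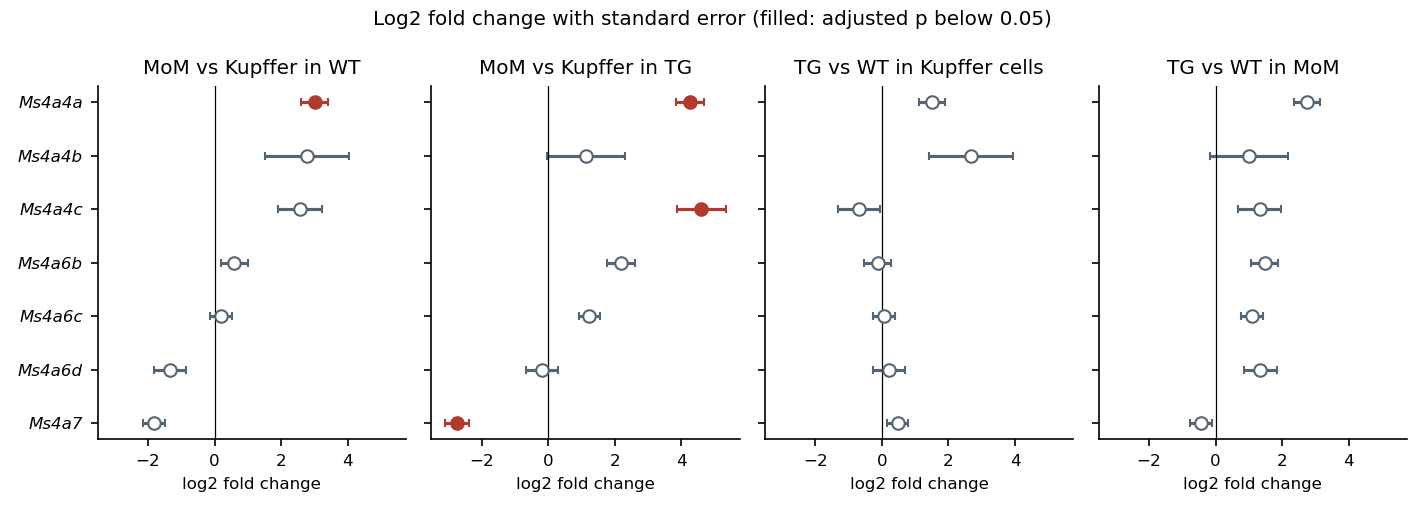
Log2 fold change with its SE for the 7 members in 4 comparisons, from the edgeR fit of all 8 libraries. Filled red points passed an adjusted p of 0.05: Ms4a4a in both comparisons of MoM with Kupffer cells, and Ms4a4c and Ms4a7 in the TG one.

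The interaction, the genotype difference of MoM less that of Kupffer cells, was positive for 5 of 7 members and passed for none: 0 of 7 in edgeR, against 0% of all genes, with 1 of 7 at an unadjusted p below 0.05 (6.42% of all genes) and 0 in DESeq2 (0.334%). The values were 2.03 ± 0.90 for Ms4a4c, 1.61 ± 0.57 for Ms4a6b, 1.24 ± 0.53 for Ms4a4a, 1.13 ± 0.68 for Ms4a6d and 1.04 ± 0.47 for Ms4a6c on the log2 scale. Ms4a7 had -0.92 ± 0.47. Ms4a4b had -1.66 ± 1.68, and 1.46 without Kupffer TG replicate 2. Adjusted p lay between 0.626 and 0.76, so no difference between the populations in the genotype effect was shown for any member.

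Of 15 further genes of the family and its relatives, 12 could be examined and 6 passed the filter on low counts, and none of these 6 was called by edgeR in any of the 5 comparisons, where 0% to 2.5% of all genes were. At an unadjusted p below 0.05 stood 1 of 6 for genotype in Kupffer cells (5.94% of all genes), 0 in MoM (6.47%), 2 and 3 for the subsets in WT and TG (25.4% in each) and 0 for the interaction (6.42%). Ms4a8a, a gene of alternatively activated macrophages, resembled Ms4a7 in its levels, with 55.9 and 73.4 CPM in WT Kupffer cells, 135 and 91.8 in TG Kupffer cells, 25.5 and 3.09 in WT MoM and 5.87 and 30.1 in TG MoM. All Kupffer libraries lay above all MoM libraries, but replicates of MoM differed widely, and the log2 fold change was -2.17 ± 1.08 in WT (edgeR adjusted p = 0.248) and -2.66 ± 1.10 in TG (0.195). Tmem176b, a relative that is abundant in macrophages and dendritic cells, had 326 to 394 CPM in the Kupffer libraries and 246 to 323 CPM in the MoM libraries, without overlap, and a log2 fold change in TG of -0.54 ± 0.21 (edgeR adjusted p = 0.175). Tmem176a had 92.3 to 135 CPM in Kupffer libraries and 109 to 163 CPM in MoM, which overlapped.

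The members of the family that mark other cells were present too. Ms4a1, which encodes CD20, had 0.144 to 7.04 CPM in Kupffer libraries and 14.8 to 56.2 CPM in MoM (log2 fold change 5.53 ± 1.19 in WT, edgeR adjusted p = 0.081). B cell markers (8 genes, none at 0) did not move as 1 group. Cd79a, a chain of the B cell receptor, had 0.682 to 12.6 CPM in Kupffer libraries and 30.3 to 65.4 CPM in MoM, whereas Cd22 had 57.4 to 108 and 41.7 to 66.7 CPM and Bank1 67.1 to 186 and 21.5 to 56.4 CPM. The sum of the list was 164 to 316 CPM in Kupffer libraries and 151 to 293 CPM in MoM. Ms4a2, of the IgE receptor, was at 0 in 3 Kupffer libraries and had 1.03 CPM in Kupffer TG replicate 2, and 0.309 to 10.3 CPM in MoM. Ms4a3, a gene of granulocyte precursors, had 5.52 CPM in MoM TG replicate 2, where neutrophil markers stood out, and at most 0.301 CPM elsewhere. Ms4a4d reached 2.91 CPM in Kupffer TG replicate 2 and at most 1.18 CPM elsewhere. Ms4a5, Ms4a10, Ms4a13, Ms4a15 and Ms4a18 had at most 2 counts in any library.

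None of 10 genes whose products work with MS4A proteins was called by edgeR in any comparison, where 0% to 2.5% of all genes were. At an unadjusted p below 0.05 stood 2 of 10 for genotype in Kupffer cells and 2 in MoM, 4 and 5 for the subsets in WT and TG, and 1 for the interaction, against the same shares of all genes as for the further family genes. The pair with the smallest p between MoM and Kupffer cells in WT was Tnfrsf18, the receptor GITR of T cells (log2 fold change 4.03 ± 1.00, edgeR adjusted p = 0.0986), and Trem2, a lipid-sensing receptor (-1.81 ± 0.55, 0.128). In TG the pair was Card9, the adaptor below Dectin-1 (1.29 ± 0.34, edgeR adjusted p = 0.0863), and Nlrp3, the inflammasome sensor (0.97 ± 0.26, 0.0889). Between genotypes the pair was Trem2 (-1.69 ± 0.55) and Nlrp3 (-0.74 ± 0.26) in Kupffer cells, both with an edgeR adjusted p of 0.73, and Card9 (1.00 ± 0.34) and Vsig4, a complement receptor of Kupffer cells (-3.74 ± 1.39), in MoM, both with 0.755. The Vsig4 difference rested on MoM WT replicate 1, the library with Kupffer markers, at 712 CPM, since MoM WT replicate 2 had 20 CPM and the TG libraries 31.6 and 23.3 CPM. For the interaction it was Nlrp3 (1.00 ± 0.36) and Card9 (1.13 ± 0.47), both with 0.626. Clec7a itself had 409 and 245 CPM in WT Kupffer cells, 514 and 480 in TG Kupffer cells, 238 and 548 in WT MoM and 706 and 1000 in TG MoM, so that its highest libraries, like those of Ms4a4a, were the TG MoM.

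Patterns across the 8 libraries were compared by Pearson's r of log2(CPM + 0.5), as a description over libraries that form 4 groups. Among the members, Ms4a6b and Ms4a6c were the most alike (r = 0.941), followed by Ms4a4c and Ms4a6b (0.926) and by Ms4a4a and Ms4a6b (0.918). Ms4a4c and Ms4a7 were the most opposed (-0.98). The near copies Ms4a4b and Ms4a4c had r = 0.758, lower than that of Ms4a4c with Ms4a4a (0.884). Ms4a6d had between -0.38 and 0.177 with all members except Ms4a7 (0.521).

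Among all other tested genes, the pattern most like that of Ms4a4a was that of Prg2, which encodes eosinophil major basic protein (r = 0.992), then Clec2g (0.985) and Rhov (0.984), all at most 12.6 CPM. For Ms4a4b they were Klrb1f, a lectin-like receptor of NK cells (0.991), Cpne7 (0.990) and Cyp7b1 (0.988). For Ms4a4c they were Tnfrsf13b, the receptor TACI (0.988), March7 (0.987) and Hdgfl3 (0.981). For Ms4a6b they were Ibtk (0.986), Sfmbt2 (0.981) and Vps26b (0.981). For Ms4a6c they were Il1f9 (0.985), Sycp2 (0.982) and Vcan, a proteoglycan of classical monocytes (0.980), which had 211 CPM in MoM TG replicate 2 and at most 8.77 CPM elsewhere. For Ms4a6d they were Fpr2, a formyl peptide receptor (0.975), Atg9a (0.959) and Igsf6 (0.950), and for Ms4a7 Akr1c12 (0.987), Rit1 (0.985) and Slc1a3, a glutamate transporter (0.984). Klrb1f, Cpne7, Cyp7b1, Tnfrsf13b, Sfmbt2, Il1f9, Sycp2 and Akr1c12 were low as well, at most 11.8 CPM in any library. All these genes were picked for the highest r among 15254 genes over 8 libraries, so a high r was bound to arise.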

How the data were processed

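Polyadenylated RNA of 8 libraries was used. Per the submitters' processing notes, the tools include STAR 2.5.2b and the build is mm10 (GRCm38). The counter, gene models and strandedness were not given in the sources used here. Files deposited by the authors hold raw counts per gene symbol. Among low counts (under 20), 65% to 68% were even numbers, as when mates are counted separately, in which case counts overstate independent fragments. A further authors' deposited table of 179 genes for TG against WT holds, per the file headers, a log2 fold change, a score (the Wald statistic), p-values and a mean in another unit. The cell type of that comparison is not named. The table lists 0 of the 7 members, and 179 genes in all where 24786 gene symbols were counted.

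The fit used edgeR 4.0.16 in R 4.3.3 over the 8 libraries and 4 groups: filterByExpr, 15254 genes, TMM, quasi-likelihood F-test, Benjamini-Hochberg over all genes, threshold 0.05. The fit was tested on simulated data. Error bars are SE. The 5 comparisons were both subset contrasts, both genotype contrasts and the interaction. Alternatives were DESeq2's size factors, omission of the filter, the replicate number as a block, DESeq2 1.42.0, only the 4 libraries compared, and each library left out. Leaving out both libraries rich in endothelial RNA was added after seeing the data. The members and lists were chosen with earlier results of these data known. All 7 members are named throughout. Further family genes are named from a mean of 1 CPM in any group, partner genes if called or else the 2 of smallest p, and 3 genes of most similar pattern per member, predicted genes left out. Clec7a and single marker genes (such as Cd3e, Cd79a, Cd209a, Ace and Ly6c2) fall outside this rule and were named after their values were seen. Positions and exon lengths (protein-coding transcripts) come from GENCODE M21, and alignments were made with Biopython 1.88. Figures were drawn with matplotlib 3.10.9.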

Additional observations from a re-analysis of the deposited data

How the results depend on the processing

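Of 483 values of single members under the alternatives, 429 kept their direction and their side of the threshold, 23 lost a call, 21 gained one and 10 turned sign. With DESeq2, 236 genes were called for TG against WT in Kupffer cells, 133 in MoM, 2942 and 2658 for MoM against Kupffer cells in WT and TG, and 51 for the interaction. DESeq2 called 1 member for TG against WT in MoM, 4 for the WT and 5 for the TG comparison of the subsets. Fitting only the 4 libraries compared gave 1585 genes and 3 members in WT, and 0 genes and 0 members in TG. Without both libraries rich in endothelial RNA, 2677 genes and 4 members were called in WT and 2130 genes and 5 members in TG.

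With each library left out in turn, the genes called ranged from 0 to 257 for TG against WT in Kupffer cells, from 0 to 1434 for the subsets in WT, from 0 to 1026 for the subsets in TG and from 0 to 83 for the interaction. The members called ranged from 0 to 2 in WT and from 0 to 4 in TG. Signs turned within these ranges of log2 fold change: Ms4a6b (-0.33 to 0.05), Ms4a6c (-0.15 to 0.24) and Ms4a4b (-0.47 to 3.56) for TG against WT in Kupffer cells, Ms4a7 (-0.79 to 0.02) for TG against WT in MoM, Ms4a6d (-1.03 to 0.32) for the subsets in TG, and Ms4a4b (-2.57 to 1.46) for the interaction. Without both libraries rich in endothelial RNA, Ms4a4b had -0.47 for TG against WT in Kupffer cells and 0.77 for the interaction. Where fewer libraries were fitted, a lone library of a group was assumed to vary like the others, and the cause of these changes was not tested.

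Same-numbered libraries did not deviate together throughout: the correlation of their deviations between groups was -0.135 to 0.619 over the 6 pairs of groups, so the numbers were not taken as pairs. With the replicate number as a block, 2 members were called in WT (Ms4a7 added, adjusted p = 0.0483) and 4 in TG (Ms4a6b added, adjusted p = 0.0483), with 234 and 301 genes. Outlying samples were not tested for, as each group has 2 libraries.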
